A study of Mus musculus with 10 samples.

Results

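Deep-layer neuron identity genes were followed in RNA-seq counts of the mouse dorsal telencephalon, the embryonic tissue that forms the cerebral cortex. The group holds 10 genes (Tbr1, Tle4, Sox5, Zfpm2, Fezf2, Bcl11b, Bcl11a, Crym, Nr4a2 and Rprm), out of 43629 gene identifiers in the count tables. They were chosen by name as markers or regulators of deep-layer and subplate neurons and not by a cut-off on their counts. Earlier results of these data were known when they were chosen. All 10 passed the filter on low counts, with 17039 genes tested in all. The 5 control embryos were Dot1l-cKO f/+ without Cre and the 5 Dot1l-cKO embryos were Dot1l-cKO f/f with 1 Cre allele, all on C57BL/6 and taken at E14.5. Both groups therefore held at least 1 floxed Dot1l allele. Every Dot1l-cKO embryo and no control carried the Cre allele, so effects of that allele itself cannot be told apart from those of the deletion of Dot1l. DOT1L is the methyltransferase of histone H3 lysine 79.

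Cortical projection neurons are born in an inside-out order, with subplate and deep-layer neurons first and upper-layer neurons later. Deep-layer fate is set by transcription factors that restrain one another. TBR1 directs corticothalamic neurons of layer 6 and represses Fezf2, and FEZF2 directs subcerebral neurons of layer 5 with BCL11B (CTIP2) downstream of it. At E14.5 deep-layer neurons have been generated and upper-layer neurons begin to be.

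Total counts ranged from 54202349 to 66556034 per sample. Replicates 2 and 3 of both groups, whose deposited tables share the header number 57, had 0.0471 to 0.492% of their counts in mitochondrial rRNA genes, against 5.79 to 10.9% in the other 6 samples, and differences within each of these sets of samples are given where they diverge. The gene-level count of Dot1l was 37.3 ± 4.04 CPM in control, where CPM are counts per 1e+06 of the scaled library, and 39.4 ± 11.7 CPM in Dot1l-cKO (mean ± SD, n = 5 each), and it was lowest, at 20.1 CPM, in Dot1l-cKO replicate 2. This count sums all exons and does not check the deletion. Dot1l-cKO replicate 2 was the lowest Dot1l-cKO sample for 8 of the 10 deep-layer genes, all but Crym and Rprm. Among the controls, replicates 1, 2 and 3 were the lowest for 3, 4 and 3 of the 10. The share of all genes tested with a given sample lowest was not counted, and a link to Dot1l was not tested. Emx1, which marks the dorsal telencephalon, was at 89.7 ± 15.1 CPM in control and 73.4 ± 6.92 CPM in Dot1l-cKO (mean ± SD, n = 5 each).

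Of the 10 genes, 2 rose in Dot1l-cKO, Crym and Zfpm2, and none fell at an adjusted p under 0.05 by edgeR's quasi-likelihood test. Across all genes tested 7.11% were called in either direction and 5.67% as increased. At an unadjusted p under 0.05 there were 6 of the 10, against 20.6% of all genes tested. The log2 fold change was positive for 8 and negative for 2, with a median of 0.23, while the median over all genes tested was -0.01 and 48.8% of them were positive. With the replicate number as a block, Nr4a2 and Rprm passed as well, which gave 4 of 10 against 9.41% of all genes. With replicates 2 and 3 against the rest as the block, Nr4a2 passed and Rprm did not, which gave 3 of 10 against 10.5% of all genes. With DESeq2 3 of 10 passed against 10.4% of all genes, Crym and Zfpm2 as higher and Sox5 as lower. The Dot1l-cKO and control samples did not overlap for 1 of the 10 genes, Crym, and for 8.34% of all genes. In bulk tissue, fewer cells of a type and less RNA per cell cannot be told apart.

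**Figure D1:**
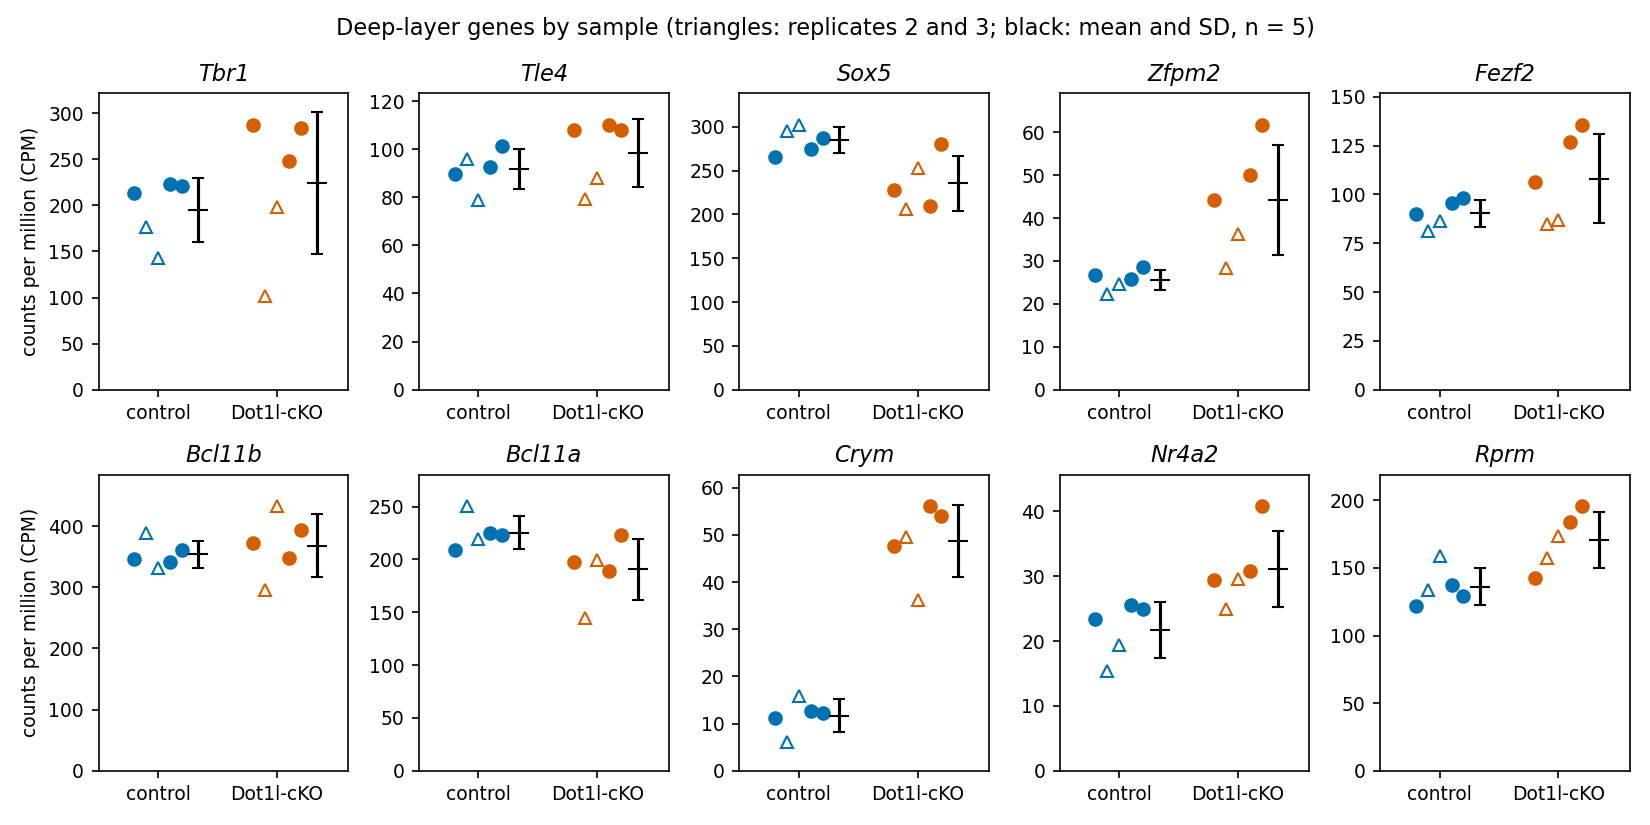
CPM (linear axis from 0) of each deep-layer gene in the 5 control (blue) and 5 Dot1l-cKO (orange) samples, with open triangles for replicates 2 and 3 and the mean and SD in black. Crym is the gene whose groups are fully apart, at 6.17 to 15.8 CPM in control and 36.3 to 56.1 CPM in Dot1l-cKO, while Tbr1 and Bcl11b in Dot1l-cKO span the control samples on both sides.

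Crym, which encodes the thyroid hormone-binding protein mu-crystallin and marks corticospinal neurons later in development, changed most. It is ENSMUSG00000030905, on GRCm38 chromosome 7 from 120186380 to 120202111, minus strand. Crym was at 11.2, 6.17, 15.8, 12.6 and 12.2 CPM across control replicates 1 to 5, against 47.6, 49.6, 36.3, 56.1 and 54.00 CPM across the same numbers of Dot1l-cKO. The lowest Dot1l-cKO sample stood above the highest control sample, so the groups did not overlap. The means were 11.6 ± 3.49 and 48.7 ± 7.73 CPM (SD, n = 5 each), a ratio of 4.19, and the log2 fold change with its standard error (SE) was 2.07 (SE 0.21, edgeR adjusted p = 0.000346). Mean log2 CPM differed by similar amounts in both sets of samples, at 2.10 in replicates 2 and 3 and 2.12 in replicates 1, 4 and 5. Per kilobase of exon, Crym went from ninth of the 10 genes in control to a level near those of Bcl11a and Sox5 in Dot1l-cKO, from 3.43 ± 1.03 to 14.4 ± 2.28 CPM per kb (SD, n = 5 each).

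Zfpm2 (FOG2), a zinc finger cofactor of GATA factors that is expressed in corticothalamic neurons, was the other gene that rose. The study lists an entry spelled Zfpn2, which may be this gene, among upper-layer genes, so its place in the deep layers is not undisputed. It is ENSMUSG00000022306, on chromosome 15 from 40655035 to 41104592, plus strand. Zfpm2 was at 26.8, 22.3, 24.6, 25.7 and 28.6 CPM across control replicates 1 to 5, against 44.3, 28.3, 36.2, 50.2 and 61.7 CPM across the same numbers of Dot1l-cKO. Of the Dot1l-cKO samples, 4 lay above all controls and replicate 2 lay just under the highest control. Its log2 fold change was 0.79 (SE 0.18, edgeR adjusted p = 0.0215). It was 0.91 with an adjusted p of 0.00483 without Dot1l-cKO replicate 2, and 5 of the 10 leave-one-out fits lost the call, those without control replicates 1, 2 and 4 and without Dot1l-cKO replicates 1 and 4, with adjusted p up to 0.0567. Mean log2 CPM differed by 0.45 in replicates 2 and 3 and by 0.93 in replicates 1, 4 and 5.

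Nr4a2 (NURR1), an orphan nuclear receptor that marks subplate neurons, and Rprm (Reprimo), a mediator of cell cycle arrest expressed in deep-layer and subplate neurons, were higher in all 5 same-numbered pairs. Crym, Zfpm2 and Fezf2 were also higher in all 5, and the share of all genes tested that were was not counted. Nr4a2 was at 23.5, 15.3, 19.4, 25.6 and 24.9 CPM across control replicates 1 to 5, against 29.4, 24.9, 29.6, 30.7 and 40.8 CPM across the same numbers of Dot1l-cKO. The groups overlapped through Dot1l-cKO replicate 2. Its change on the log2 scale was 0.52 (SE 0.16, edgeR adjusted p = 0.0811), and it was 0.52 with an SE of 0.09 and an adjusted p of 0.0135 with the replicate block. Rprm was at 122, 134, 159, 138 and 129 CPM across control replicates 1 to 5, against 143, 158, 174, 184 and 196 CPM across the same numbers of Dot1l-cKO. Of the Dot1l-cKO samples 3 lay above all controls. For Rprm the log2 fold change was 0.33 (SE 0.10, edgeR adjusted p = 0.0786), and the adjusted p was 0.0430 with the replicate block but 0.0632 with replicates 2 and 3 against the rest as the block. Rprm also passed without control replicate 3 (adjusted p = 0.0380) or without Dot1l-cKO replicate 1 (adjusted p = 0.0485).

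The other regulators of the corticothalamic programme, Tbr1, Tle4 and Sox5, did not pass the test. Tbr1 (the T-box factor of layer 6 neurons) was at 213, 177, 143, 223 and 221 CPM across control replicates 1 to 5, against 287, 102, 199, 248 and 284 CPM across the same numbers of Dot1l-cKO. Dot1l-cKO held both the lowest and the highest samples of the series, and its SD of 76.9 CPM was the widest of the 10 genes. Its fold change on the log2 scale was 0.20 (SE 0.24, edgeR adjusted p = 0.708). Mean log2 CPM differed by -0.16 in replicates 2 and 3 and 0.32 in replicates 1, 4 and 5, and without Dot1l-cKO replicate 2 the log2 fold change was 0.38 with an adjusted p of 0.185. Tle4, a Groucho corepressor enriched in layer 6, ranged from 79.03 to 101 CPM in control and from 79.1 to 110.0 CPM in Dot1l-cKO, and its log2 fold change was 0.10 (SE 0.11, edgeR adjusted p = 0.632).

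Sox5, an SRY-box factor that controls the order in which deep-layer subtypes emerge, was lower in Dot1l-cKO in all 5 same-numbered pairs, as was Bcl11a. The share of all genes tested that were lower in all 5 was not counted either. Sox5 was at 266, 295, 302, 275 and 287 CPM across control replicates 1 to 5, against 227, 206, 253, 209.8 and 280.4 CPM across the same numbers of Dot1l-cKO. Replicate 5 was the Dot1l-cKO sample within the control range, and the other 4 lay under all controls. The fold change on the log2 scale was -0.27 (SE 0.09, edgeR adjusted p = 0.102). The adjusted p was 0.0614 with the replicate block, 0.0303 with DESeq2, and 0.0269 by edgeR without Dot1l-cKO replicate 5. Reads of the antisense and intronic transcripts annotated within Sox5 came to at most 6 counts in any sample for any of them, against at least 11896 for Sox5.

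Fezf2 and Bcl11b, the other genes of the subcerebral programme, did not pass, and neither did Bcl11a. Fezf2 (a zinc finger factor that specifies corticospinal neurons) was at 89.98, 81.3, 86.3, 95.7 and 97.9 CPM across control replicates 1 to 5, against 106, 85.00, 87.04, 127 and 135 CPM across the same numbers of Dot1l-cKO. Replicates 1, 4 and 5 of Dot1l-cKO stood above all controls, and replicates 2 and 3 lay among them. For Fezf2 the log2 fold change was 0.26 (SE 0.13, edgeR adjusted p = 0.296), and mean log2 CPM differed by 0.04 in replicates 2 and 3 and 0.37 in the others. Bcl11b (the zinc finger factor CTIP2, needed for corticospinal axons) was at 346, 389, 332, 341 and 361 CPM across control replicates 1 to 5, against 372, 295, 432, 347 and 394 CPM across the same numbers of Dot1l-cKO. Dot1l-cKO samples lay on both sides of the control range, and the log2 fold change was 0.06 (SE 0.10, edgeR adjusted p = 0.798). Bcl11a (CTIP1, the paralogue of Bcl11b) was at 209, 250.4, 219.8, 225 and 224 CPM across control replicates 1 to 5, against 197, 144, 199.8, 189 and 223 CPM across the same numbers of Dot1l-cKO. Of the Dot1l-cKO samples 4 lay under all controls. The log2 fold change of Bcl11a was -0.24 (SE 0.11, edgeR adjusted p = 0.221).

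**Figure D2:**
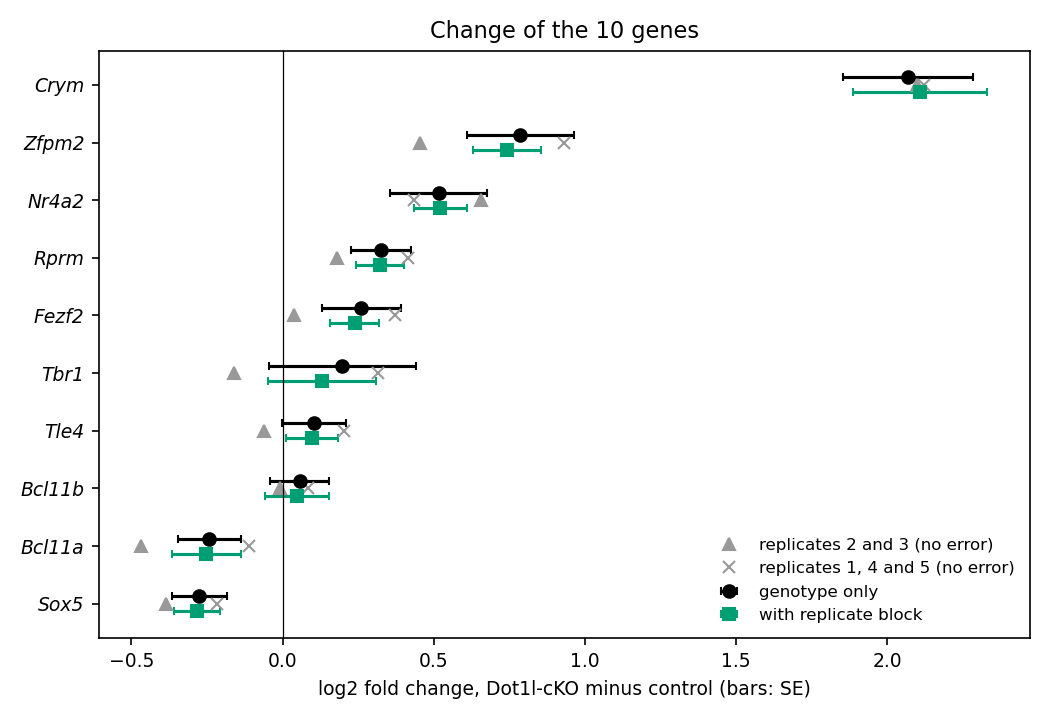
Log2 fold change (Dot1l-cKO minus control) of the 10 genes with SE bars, from the edgeR fit with genotype only (black) and with the replicate block (green), and the differences in mean log2 CPM within replicates 2 and 3 and within replicates 1, 4 and 5 (grey, no error). Crym stands at 2.07 and Zfpm2 at 0.79, and the 2 sets of samples lie on opposite sides of 0 for Tbr1, at -0.16 and 0.32.

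Levels were compared between genes per kilobase of exon. In control Rprm was highest at 93.3 ± 9.59 CPM per kb, followed by Bcl11b at 43.6 ± 2.74, Tbr1 at 35.6 ± 6.29, Fezf2 at 29.6 ± 2.24, Sox5 at 19.8 ± 1.02, Bcl11a at 17.1 ± 1.16, Tle4 at 16.1 ± 1.44, Nr4a2 at 5.35 ± 1.07, Crym at 3.43 ± 1.03 and Zfpm2 at 2.68 ± 0.249 CPM per kb (SD, n = 5 each). The control ranges of neighbours in this order overlapped for Tbr1 and Fezf2, Sox5 and Bcl11a, Bcl11a and Tle4, Nr4a2 and Crym, and Crym and Zfpm2.

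The genes were also compared by how their samples deviated from the group means of log2 CPM over the 10 samples. Fezf2 and Zfpm2 were the most alike pair, with a Pearson r of 0.95, which was 0.95 also without Dot1l-cKO replicate 2. Tbr1 was most like Tle4 (r = 0.88, and 0.81 without that sample), and Bcl11b most like Bcl11a (r = 0.85, and 0.60 without it). Sox5 was most like Bcl11a (0.76), Nr4a2 most like Zfpm2 (0.76), Crym most like Nr4a2 (0.54) and Rprm most like Sox5 (0.54). The lowest r was that of Bcl11b and Crym, at -0.55. Over the 45 pairs the median r was 0.42, and it was 0.15 without Dot1l-cKO replicate 2. The group means were taken over all replicates, so a split between replicates 2 and 3 and the others stays in the deviations. In both genotypes Fezf2 and Zfpm2 were lowest in replicates 2 and 3. The points share library, depth and normalisation, and these values are descriptions.

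Ratios within a sample do not depend on its library size, and 5 pairs of genes are described by the log2 ratio of their counts, with p adjusted over the 6 pairs tested. The sizes of the ratios are not per length, so only their shift between groups is read. The pairs were chosen with earlier results of these data known, so their p-values describe these samples and are not an independent test. The Bcl11b/Bcl11a log2 ratio was 0.73, 0.63, 0.59, 0.60 and 0.69 in control replicates 1 to 5 and 0.91, 1.03, 1.11, 0.88 and 0.82 in Dot1l-cKO replicates 1 to 5. Every Dot1l-cKO sample stood above every control. The mean went from 0.65 ± 0.06 to 0.95 ± 0.12 (SD, n = 5 each), a difference of 0.30 (exact two-sided permutation p = 0.00794, the smallest this test allows, adjusted 0.0476). The Sox5/Fezf2 log2 ratio went from 1.66 ± 0.16 to 1.14 ± 0.30 (SD, n = 5 each), a difference of -0.52 with Dot1l-cKO lower in all 5 same-numbered pairs (exact two-sided permutation p = 0.0159, adjusted 0.0476). Its groups overlapped in 1 Dot1l-cKO sample, replicate 3, and the adjusted p of the exact test was 0.0714 without control replicate 1 or without control replicate 5. The differences were -0.11 for Tbr1/Fezf2, 0.08 for Tbr1/Bcl11b and -0.14 for Tle4/Fezf2, with adjusted exact permutation p of 0.738, 0.738 and 0.25. With the replicates paired, the exact sign-flip test cannot go below 0.0625 and so cannot pass the threshold for any pair.

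**Figure D3:**
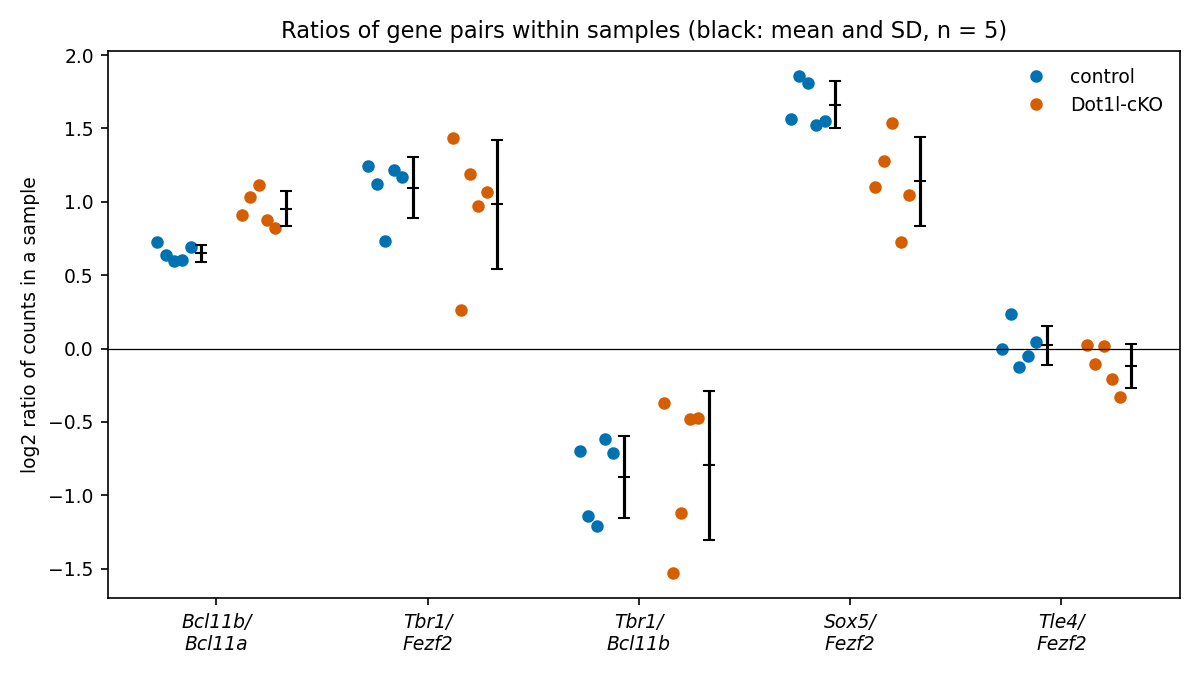
Log2 ratio of the counts of a pair of genes in each of the 5 control (blue) and 5 Dot1l-cKO (orange) samples, with the mean and SD in black. Bcl11b/Bcl11a is the pair whose groups are fully apart, at 0.59 to 0.73 in control and 0.82 to 1.11 in Dot1l-cKO.

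The promoters of the 4 genes in the pairs that passed are shown with each CG dinucleotide in capitals, since CG content is what separates most mammalian promoters into classes. Each run holds 250 bases before and 50 after a RefSeq start site in GRCm38.p6, 5′ to 3′ on the gene's strand.
Bcl11b: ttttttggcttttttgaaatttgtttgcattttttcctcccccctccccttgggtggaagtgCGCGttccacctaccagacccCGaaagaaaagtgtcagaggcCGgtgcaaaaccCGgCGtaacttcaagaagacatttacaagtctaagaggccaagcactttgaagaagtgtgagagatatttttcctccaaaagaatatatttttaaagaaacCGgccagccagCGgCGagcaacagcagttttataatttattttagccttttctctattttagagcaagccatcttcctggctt
Bcl11a: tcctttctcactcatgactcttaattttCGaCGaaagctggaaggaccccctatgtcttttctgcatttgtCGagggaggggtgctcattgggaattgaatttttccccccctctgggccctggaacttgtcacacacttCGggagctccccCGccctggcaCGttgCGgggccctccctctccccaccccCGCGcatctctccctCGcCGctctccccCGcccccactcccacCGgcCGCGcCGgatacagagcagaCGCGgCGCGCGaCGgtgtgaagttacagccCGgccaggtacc
Fezf2: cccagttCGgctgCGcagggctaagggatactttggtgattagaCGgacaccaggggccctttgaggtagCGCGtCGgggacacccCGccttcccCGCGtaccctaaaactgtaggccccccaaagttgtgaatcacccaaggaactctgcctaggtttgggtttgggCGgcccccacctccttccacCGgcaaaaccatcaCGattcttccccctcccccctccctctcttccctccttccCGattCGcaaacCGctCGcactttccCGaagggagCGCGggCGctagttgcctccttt
Sox5: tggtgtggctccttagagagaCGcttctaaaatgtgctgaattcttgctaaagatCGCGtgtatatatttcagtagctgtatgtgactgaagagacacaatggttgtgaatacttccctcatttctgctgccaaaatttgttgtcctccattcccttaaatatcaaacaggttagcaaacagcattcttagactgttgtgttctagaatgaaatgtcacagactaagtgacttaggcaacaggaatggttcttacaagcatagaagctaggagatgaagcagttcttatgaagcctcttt
The Bcl11b window (chr12:108003365-108003664, minus strand) holds 9 CG and the Bcl11a window (chr11:24080445-24080744, plus strand) 23. The Fezf2 window (chr14:12345816-12346115, minus strand) holds 20. The Sox5 window (chr6:143947057-143947356, minus strand) holds 3, and its start site lies 834.9 kb inside the gene from the annotated 5′ end, so it is an internal start. The start sites of the Bcl11a and Fezf2 windows also lie inside their genes, by 2.64 and 2.32 kb, and that of Bcl11b by 0.188 kb, so the CG numbers hold for these starts and not for the annotated 5′ ends, and the gene-level counts do not tell starts apart. Of 32851 such promoter entries 45.8% hold at least 9 CG, 21.5% at least 23, 26.5% at least 20 and 76.7% at least 3, with a median of 7 (CG reads the same on both strands). Entries were found for 8 of the 10 genes, without Zfpm2 and Crym. Among the others Nr4a2 had the most CG, at 52, a number reached by 0.575% of entries.

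Other genes of the deep layers were described from lists. Of 10 other layer 6 genes 1 rose, Ppp1r1b (DARPP-32), with a log2 fold change of 0.69 (SE 0.09, edgeR adjusted p = 0.00163), and none fell, with a median log2 fold change of -0.26. With the replicate block Tshz3 also passed, as lower (log2 fold change -0.44, adjusted p = 0.0284). Of 12 other layer 5 genes 2 rose and 1 fell, with a median of -0.0012. The log2 fold change was 0.76 (SE 0.10, edgeR adjusted p = 0.00165) for Bhlhe22, 0.67 (SE 0.14, edgeR adjusted p = 0.0137) for S100a10 and -1.21 (SE 0.16, edgeR adjusted p = 0.00139) for the homeobox gene Otx1. The study places Otx1 among genes of the progenitor zones, and the part of layer 5 neurons in its fall was not tested. Of 9 other subplate genes tested 1 rose, Tmem163, with a log2 fold change of 0.87 (SE 0.18, edgeR adjusted p = 0.0135) and a median over the list of 0.14, and with the replicate block Lpar1 passed as lower (-0.49, adjusted p = 0.0351). Of 10 upper-layer and callosal genes 1 rose, the plexin Plxnd1 (log2 fold change 0.78), and 3 fell, Cux2 (-1.26), Pou3f3 (-0.68) and Cux1 (-0.34), with a median of -0.25. With the replicate block 4 upper-layer genes passed as lower in place of 3. The medians stand beside -0.01 over all genes tested.

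Markers of other cells were summed beside these results. All 8 Cajal-Retzius cell genes, among which Reln is the best known, had a positive log2 fold change and 5 rose, Ndnf (log2 fold change 1.61), Calb2 (1.40), Ebf2 (1.04), Lhx5 (0.82) and Nhlh2 (0.72), and with the replicate block Reln passed as well (0.66, adjusted p = 0.00412). Their summed level was 426.8 to 649.9 CPM in control and 678 to 1238 CPM in Dot1l-cKO, without overlap. Tbr1 is not a marker of projection neurons alone, since Cajal-Retzius cells also express it. All 9 GABAergic neuron genes were negative and 2 fell, among them Lhx6 (log2 fold change -3.00), and the sum was 105.6 to 360.3 CPM in control and 31.2 to 115 CPM in Dot1l-cKO. Of 12 striatal genes 10 were negative and 1 rose, Rgs9 (log2 fold change 0.80), with a sum of 344 to 537 CPM in control and 329 to 418 CPM in Dot1l-cKO. Of 4 thalamic genes tested 1 rose, Lhx9 (log2 fold change 0.77), with sums of 77.5 to 123 and 74.2 to 108 CPM. This list holds Foxp2, which is also among the other layer 6 genes, so its sum is not a measure of thalamic cells alone. Foxp2 had a mean of 36.1 CPM in control and 25.0 CPM in Dot1l-cKO. None of the listed markers was at 0 in every sample. The part of these cells in the values of the deep-layer genes was not tested.

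General neuronal and progenitor genes are given for scale. Of 10 pan-neuronal genes 1 rose, the growth cone gene Gap43 (log2 fold change 0.46), and the sum was 3185 to 4846 CPM in control and 3659 to 4475 CPM in Dot1l-cKO. Of 6 cortical projection neuron genes none passed, and with the replicate block 3 did, all higher, with a median log2 fold change of 0.26 without the block. Their sum was 1024 to 1139 CPM in control and 1139 to 1383 CPM in Dot1l-cKO. Of 10 cortical progenitor genes Vim and Slc1a3 rose and Pax6 fell, with log2 fold changes of 0.53, 0.43 and -0.36, and Sox2 passed as lower with the replicate block (-0.38, adjusted p = 0.00906).

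**Figure D4:**
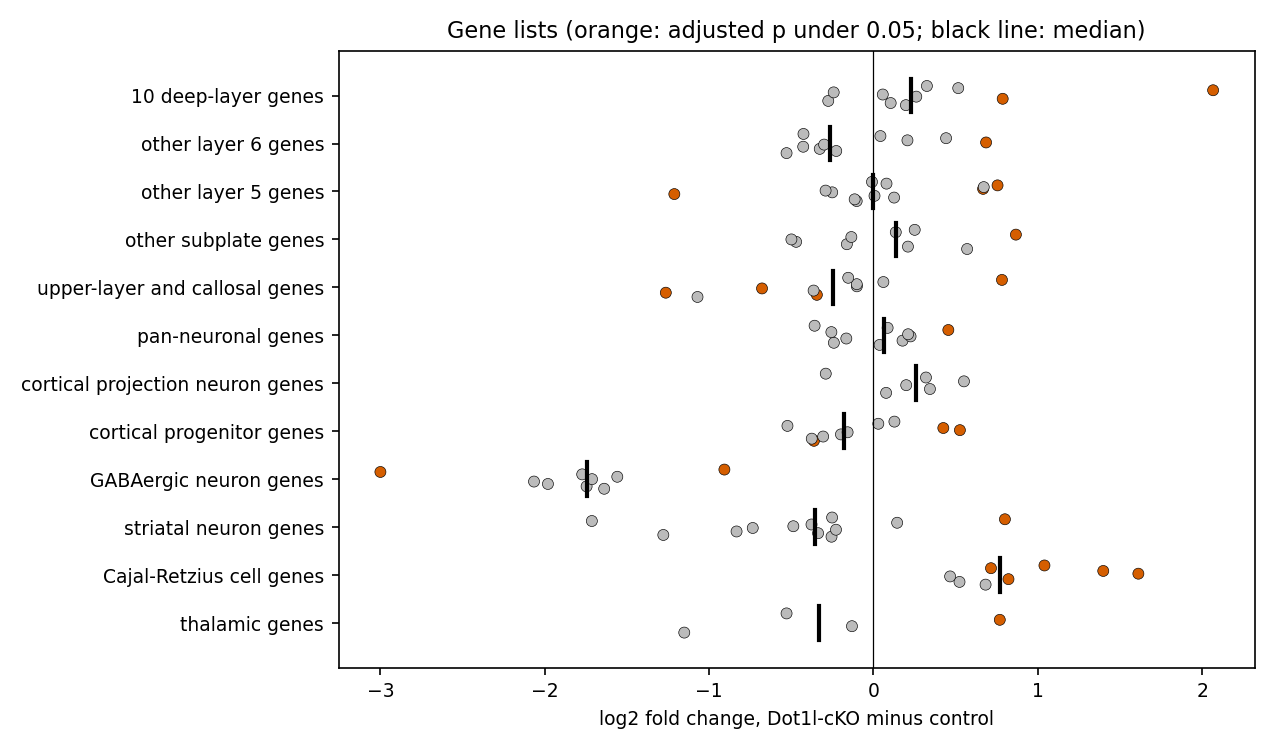
Log2 fold change (Dot1l-cKO minus control) of each tested gene of the 12 lists, in orange where the edgeR adjusted p is under 0.05, with the list median as a black line. The 10 deep-layer genes have a median of 0.23 and 2 orange points, against a median of 0.77 for the Cajal-Retzius cell genes and -1.75 for the GABAergic neuron genes.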

How the data were processed

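Stranded, rRNA-depleted total RNA libraries of 10 dorsal telencephalon samples were sequenced as paired ends. Per the labels, the authors trimmed reads with Trim Galore 0.2.8, mapped them to mm10 with TopHat2 2.0.9, counted them per gene of Ensembl 79 with HTSeq 0.6.0 in reverse-stranded mode and used DESeq2 1.6.1. The deposited counts are whole numbers, not normalised. The second kind of deposited table holds a signal that is the counts divided by the authors' size factors. Reads carry no molecular identifiers.

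Of 43629 identifiers, 42548 matched a symbol in GENCODE M21 (GRCm38), which also gave coordinates and exon lengths. Genes were filtered with filterByExpr, scaled by TMM and tested with edgeR 4.0.16 (quasi-likelihood, genotype only, R 4.3.3), with Benjamini-Hochberg adjustment over all genes tested and a threshold of 0.05. SE is the log2 fold change divided by the square root of F and is approximate. CPM are counts per 1e+06 of the TMM-scaled library size, and log2 CPM used a prior count of 2. The test was tried on simulated counts. Alternatives were DESeq2 1.42.0 at its defaults, limma 3.58.1 on log2(deposited normalised count + 1), other scaling and filters, blocks, and samples left out. DESeq2 was first run with independent filtering at 0.05, a departure from the planned defaults that was noticed and undone after its count had been compared with an earlier analysis of these data, and it is kept as an added alternative.

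Same-numbered samples deviated together, with a Pearson r of deviations over genes from 0.131 to 0.597 in 5 of 5 pairs (mean 0.29). The 20 pairs of different numbers ranged from -0.534 to 0.446 (mean -0.072). Deviations were taken from the mean of each group and so cancel within it. A positive mean for same numbers thus goes with a negative mean for different numbers, which is not separate evidence of pairing. The replicate numbers were taken to pair the samples. Control replicate 3 was however most like Dot1l-cKO replicate 5 (0.446, against 0.145 with its own number). Control replicate 2 was about as like Dot1l-cKO replicate 3 (0.350) as its own number (0.349). Control replicate 5 was most like Dot1l-cKO replicate 4 (0.294, against 0.131). The pairing is thus an assumption of the replicate block and of the same-numbered comparisons. The labels call the samples biological replicates. The lowest chi-square per degree of freedom between replicates was 30.8, so none was counted as a duplicate. The genes, lists and pairs were chosen with earlier results of these data known. Genes outside the 10 are named as the 2 called genes of each list with the largest rise and the 2 with the largest fall at a mean log2 CPM of at least 0. The other genes named (Emx1, Tshz3, Lpar1, Sox2, Reln, Ebf2, Lhx5, Nhlh2, Cux1 and Foxp2) were chosen after their values were seen. Results that need some other genes, 1 of the 6 pairs included, are not reported here.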

Additional observations from a re-analysis of the deposited data

Results flagged for a closer look

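In 32 groups of 5 samples (the 10 genes, Dot1l and 5 ratios, in each genotype), the gap of the most extreme sample to its neighbour was set against the range of its group. Chance flags about 1 in 20 such groups, and 2 passed. Dot1l in Dot1l-cKO replicate 2 had a gap of 0.717 of the range, at 4.33 log2 CPM with a group median of 5.40. The Tbr1/Fezf2 log2 ratio in control replicate 3 had a gap of 0.756 of the range, at 0.73 with a group median of 1.17.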

How the results depend on the processing

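Against 2 of 10 deep-layer genes called, both higher, 4 were called with the replicate block, all higher, 3 with replicates 2 and 3 against the rest as the block, where Rprm did not pass, 1 with limma on the deposited normalised counts, 1 at an adjusted p under 0.01, and 0 in the edgeR fit of replicates 2 and 3 alone (2 against 2), where 1 of all genes was called and 0 as decreased. DESeq2 called 1 as decreased, at its defaults and with independent filtering at 0.05. Leaving out 1 sample gave 1 to 3 called, 1 to 3 higher and 0 to 1 lower. Over all genes 1212 were called, 966 higher and 246 lower. DESeq2 called 2011 (663 lower), and 2001 (658 lower) with independent filtering at 0.05. There were 495 lower with the replicate block and 514 with replicates 2 and 3 against the rest as a block. Replicates 1, 4 and 5 alone gave 745 (590 higher, 155 lower) and an adjusted p under 0.01 gave 495 (422 higher, 73 lower). Leaving out 1 sample gave 750 to 1357, with 624 to 1076 higher and 126 to 343 lower. In replicates 2 and 3 alone Tbr1 turned to -0.073 and Tle4 to -0.046, and Bcl11b ranged from -0.0087 (without Dot1l-cKO replicate 3) to 0.13 with 1 sample left out. The block changed no other call among the 10 genes than those of Nr4a2 and Rprm. Zfpm2 lost its call with limma (adjusted p = 0.0511) and in replicates 2 and 3 alone (0.275). Crym stayed past the threshold in all fits but that of replicates 2 and 3 alone (adjusted p = 0.189). The sign-flip test of the paired replicates left Bcl11b/Bcl11a (0.30) and Sox5/Fezf2 (-0.52) at an adjusted exact p of 0.125. Bcl11b/Bcl11a was 0.46 in replicates 2 and 3 alone. With 1 sample left out the ratio differences ranged from 0.26 to 0.33 for Bcl11b/Bcl11a, -0.62 to -0.42 for Sox5/Fezf2, -0.22 to 0.068 for Tbr1/Fezf2 and -0.027 to 0.26 for Tbr1/Bcl11b. Tbr1/Bcl11b turned to -0.0058 without control replicate 3, to -0.027 without Dot1l-cKO replicate 1 and to -0.0026 without Dot1l-cKO replicate 5, and Tbr1/Fezf2 to 0.068 without Dot1l-cKO replicate 2. The causes were not tested.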
